A study of Mus musculus with 6 samples.

Results

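The miRNAs described here are the 8 mature arms, read by 22 probes, of the hairpins miR-33, miR-335, miR-140 and miR-342 (mmu-miR-33-5p and mmu-miR-33-3p, mmu-miR-335-5p and mmu-miR-335-3p, mmu-miR-140-5p and mmu-miR-140-3p, mmu-miR-342-5p and mmu-miR-342-3p). They were chosen by name from the 1247 mouse miRNAs on the array, because their hairpins lie within 4 protein-coding genes, Srebf2, Mest, Wwp2 and Evl, some of them known from fat metabolism. Both arms of each hairpin were on the array. The values come from mouse 3T3-L1 cells, an embryonic fibroblast line that becomes fat-laden under hormones, taken on day 8 of differentiation. The question was which miRNAs differ when interleukin-6 (IL-6), an inflammatory cytokine that fat tissue also releases, is present during differentiation. The IL-6 group (2 arrays) received recombinant IL-6 at 1 ng/ml from the moment of induction, renewed with the medium every 24 h, and the control group (4 arrays) received none. Both groups otherwise had the same schedule. After 48 h past confluence came 3 days with isobutylmethylxanthine at 0.5 mmol/l, dexamethasone at 1 µmol/l, and insulin and rosiglitazone at 2 µmol/l each, then 3 days with insulin alone, then 2 days with neither hormone nor drug, all in 10% fetal bovine serum. All cells had therefore seen dexamethasone, which damps inflammatory signalling, and rosiglitazone, which activates the fat cell regulator PPARγ. Everything rests on 1 cell line. The labels do not say whether the arrays of a group are separate cultures, and the p-values therefore cover a spread between arrays that may be technical. The small number of arrays limits the precision.

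An intronic miRNA is cut from a hairpin that lies inside an intron of another gene, so a single primary transcript can give both the host's mRNA and the miRNA. Each hairpin yields a 5p and a 3p arm, of which often only one accumulates, bound to an Argonaute protein. The seed, bases 2 to 8 of the mature arm, pairs with target mRNAs and largely sets which are repressed. miR-33 lies in Srebf2, the gene of the transcription factor that drives cholesterol synthesis and uptake, and represses the cholesterol exporter ABCA1. miR-335 lies in Mest, an imprinted gene whose mRNA rises in expanding mouse fat. miR-140, best known from cartilage, lies in Wwp2, which encodes a ubiquitin ligase. miR-342 lies in Evl, which encodes a regulator of actin filaments of the Ena/VASP family.

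Each hairpin lay within the bounds of its host gene and on the host's strand in the RefSeq annotation of GRCm38.p6. That annotation gave gene bounds and no exons, so that the hairpins are intronic is background knowledge here and was not checked. Mir33 was at chr15:82198122-82198190 on the plus strand, 87.5% of the way along Srebf2 (chr15:82147269-82205379). Mir335 was at chr6:30741299-30741396, 52.1% of the way along Mest (chr6:30733506-30748466). Mir140 was at chr8:107551244-107551313, 93.5% of the way along Wwp2 (chr8:107436334-107559290). Mir342 was at chr12:108658620-108658718, 77.7% of the way along Evl (chr12:108554681-108688516). All 4 hosts were on the plus strand. The host mRNAs were not measured on these arrays.

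The mature arms are shown because each arm is a separate molecule with its own seed, and the results differ between arms of one hairpin. The sequences are RefSeq's for GRCm38.p6, 5′ to 3′, with the seed in capitals. Entries were found for 7 of the 8 arms, all but miR-140-5p.
mmu-miR-33-5p: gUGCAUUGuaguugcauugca
mmu-miR-33-3p: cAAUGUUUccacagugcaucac
mmu-miR-335-5p: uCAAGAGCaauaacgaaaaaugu
mmu-miR-335-3p: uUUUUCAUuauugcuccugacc
mmu-miR-140-3p: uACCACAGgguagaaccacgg
mmu-miR-342-5p: aGGGGUGCuaucugugauugag
mmu-miR-342-3p: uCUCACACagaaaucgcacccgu
The 7 seeds were all different, and none was shared with another of the 1017 array miRNAs that had a RefSeq sequence. The nearest was miR-33-3p, whose first 6 seed bases were also those of miR-409-3p, a miRNA not detected well enough to be tested. The arms measured 21 to 23 bases, with a GC content between 30.4% for miR-335-5p and 57.1% for miR-140-3p.

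The hairpins from which the arms are cut are shown for the 3 miRNA genes with both arms in RefSeq, on the plus strand of GRCm38.p6, with the 5p and then the 3p arm in capitals.
Mir33: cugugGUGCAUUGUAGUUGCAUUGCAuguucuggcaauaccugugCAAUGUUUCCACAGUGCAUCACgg
Mir335: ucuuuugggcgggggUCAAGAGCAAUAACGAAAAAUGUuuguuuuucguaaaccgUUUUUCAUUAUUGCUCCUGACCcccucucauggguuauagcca
Mir342: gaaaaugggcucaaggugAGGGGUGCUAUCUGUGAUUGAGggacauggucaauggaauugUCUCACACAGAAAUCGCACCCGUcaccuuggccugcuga

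Of the 8 arms, 4 were detected on all 6 arrays and the other 4 on none. miR-33-5p, miR-140-5p, miR-140-3p and miR-342-3p were detected throughout. miR-33-3p, miR-335-5p, miR-335-3p and miR-342-5p were not well above background on any array. Thus miR-140 gave signal from both arms, miR-33 from the 5p arm alone, miR-342 from the 3p arm alone, and miR-335 from neither by this rule. The split was the same on the IL-6 arrays as on the controls. A probe counted as detected on an array where at least 0.5 of its spots were well above background by the scanner software's flag, and a miRNA where any of its probes was detected.

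**Figure D1:**
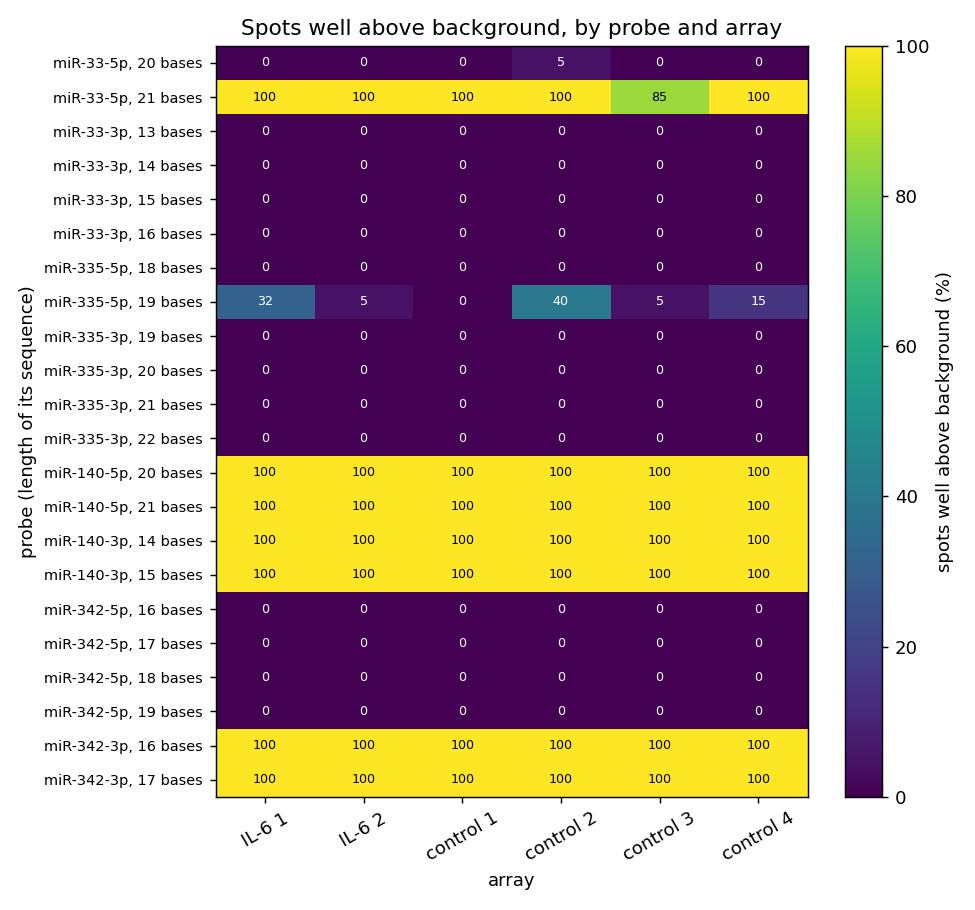
Share of spots well above background (%, colour and printed number) for each of the 22 probes (rows, labelled by miRNA and probe length in bases) on the 2 IL-6 arrays and the 4 control arrays (columns). The probes of miR-140-5p, miR-140-3p and miR-342-3p and the 21-base probe of miR-33-5p stand at 85% to 100% on every array, while the other probes reach at most 40%.

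All 6 arrays were on 1 slide. Intensities were scaled to the 75th percentile of the 502 probes detected on every array, which was 440 and 369 intensity units on the IL-6 arrays and between 248 and 396 on the controls. The number of detected miRNAs was 313 and 300 on the IL-6 arrays and between 268 and 294 on the controls. On every array the labelling spike-in missed the range that the scanner software sets. The IL-6 arrays filled slide row 2 and the controls row 1, so row and group cannot be told apart. Controls 1 to 4 lay in slide columns 1 to 4 and IL-6 arrays 1 and 2 in columns 3 and 4, and the difference within each shared column is given beside the detected arms and the lists. Markers of mesenchymal cells (miR-199a, miR-214, miR-143 and miR-145a) were detected on every array, 5 of 5, with summed scaled intensities of 5122.5 and 5670.5 on the IL-6 arrays and between 5008.3 and 6080.0 on the controls. None of the 4 muscle, 5 blood, 1 liver, 2 neural and 6 epithelial markers was detected on any array, and the 2 endothelial markers were not found on the array under the names sought. Fewer cells of a type and less RNA per cell cannot be told apart in such bulk RNA.

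None of the 4 detected arms passed the test between IL-6 and control (limma, Benjamini-Hochberg adjusted over 299 tested miRNAs, threshold 0.05), where 1 of the 299, or 0.334%, passed. Their limma adjusted p ran from 0.2996 to 0.9975. At an unadjusted p under 0.05, limma called 0 of the 4, against 68 of 299, or 22.7%. The groups did not overlap for 1 of the 4, which was lower with IL-6, against 104 of 299, or 34.8% (21.7% lower and 13.0% higher). The 4 differences had a median of -0.037 on the log2 scale, beside a median of -0.016 and quartiles of -0.15 and 0.12 over all 299. All 4 were below 0, as were 165 of the 299, or 55.2%. That sign turned for all 4 when arrays were left unscaled or were scaled to the hybridisation spike-in, settings that shifted the median of all tested miRNAs up by 0.28 and 0.29.

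**Figure D2:**
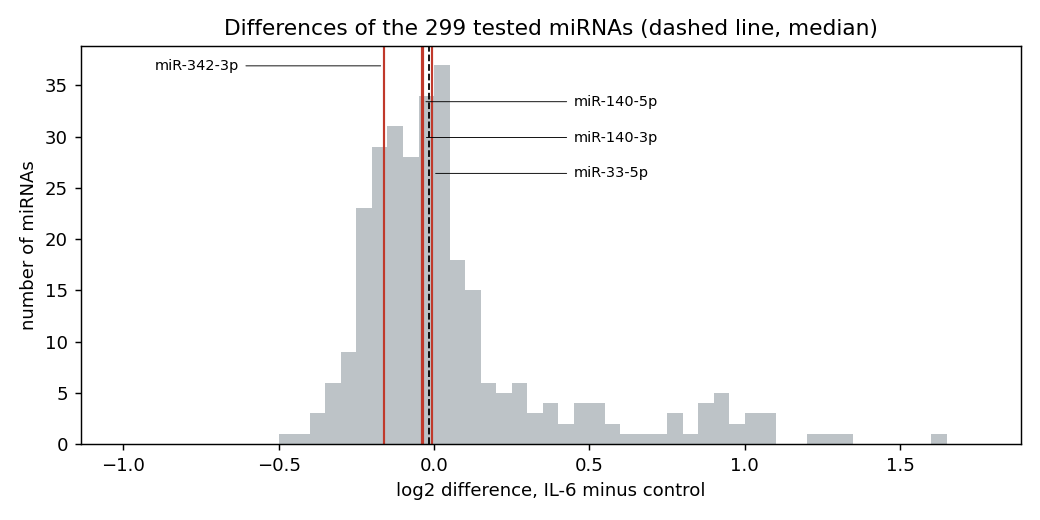
Histogram of the log2 difference, IL-6 minus control, of the 299 tested miRNAs (x axis, bins of 0.05) by number of miRNAs (y axis), with the 4 detected arms as red lines and the median of -0.016 as a dashed line. miR-33-5p, miR-140-5p and miR-140-3p lie beside the median, and miR-342-3p lies at -0.16, below the lower quartile of -0.15.

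miR-342-3p, the arm of the Evl hairpin that was detected, was the arm whose groups did not overlap. Its scaled intensity was 28.4 and 28.3 on the IL-6 arrays, against 33.6, 32.7, 31.7 and 28.8 on controls 1 to 4. Both IL-6 arrays thus sat below all 4 controls, and control 4 lay close to them. The groups overlapped without scaling, with spike-in scaling, with all-probe scaling and with the brightest probe alone. On the log2 scale this was 4.82 ± 0.0024 with IL-6 (SD, n = 2) and 4.98 ± 0.098 in controls (SD, n = 4). The difference was -0.16 ± 0.085 (SE), or 1.12-fold lower, with a 95% interval from -0.37 to 0.048, and did not pass (limma adjusted p = 0.2996). By size it ranked 129 of the 299 tested miRNAs. Both IL-6 arrays lay below all controls for 65 of the 299, or 21.7%. The difference was -0.16 within slide column 3 and -0.025 within column 4, and -0.093 ± 0.097 (SE) with the column as a block (limma adjusted p = 0.5757). It turned to 0.13 without scaling and to 0.14 with spike-in scaling, which relative to the median of all tested miRNAs was -0.13 in both.

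Of the 2 probes of miR-342-3p, the 16-base probe separated the groups, with a difference of -0.17, and the 17-base probe did not, with a difference of -0.15. These probes pair with bases 8 to 23 and 7 to 23 of the mature sequence and so read its 3′ part, with at most 2 bases of the seed. The coefficient of variation among spots of one probe on one array was 7.17% to 17.7%. The other arm, miR-342-5p, had scaled intensities around 0 on every array, -0.36 and 0.48 with IL-6 and between -0.63 and 0.41 in controls. None of the spots of its 4 probes was well above background, so no fold was taken. An exact two-sided permutation test over the 15 splits of the arrays gave p = 1.0 for its means of 0.0595 with IL-6 and 0.0682 in controls.

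**Figure D3:**
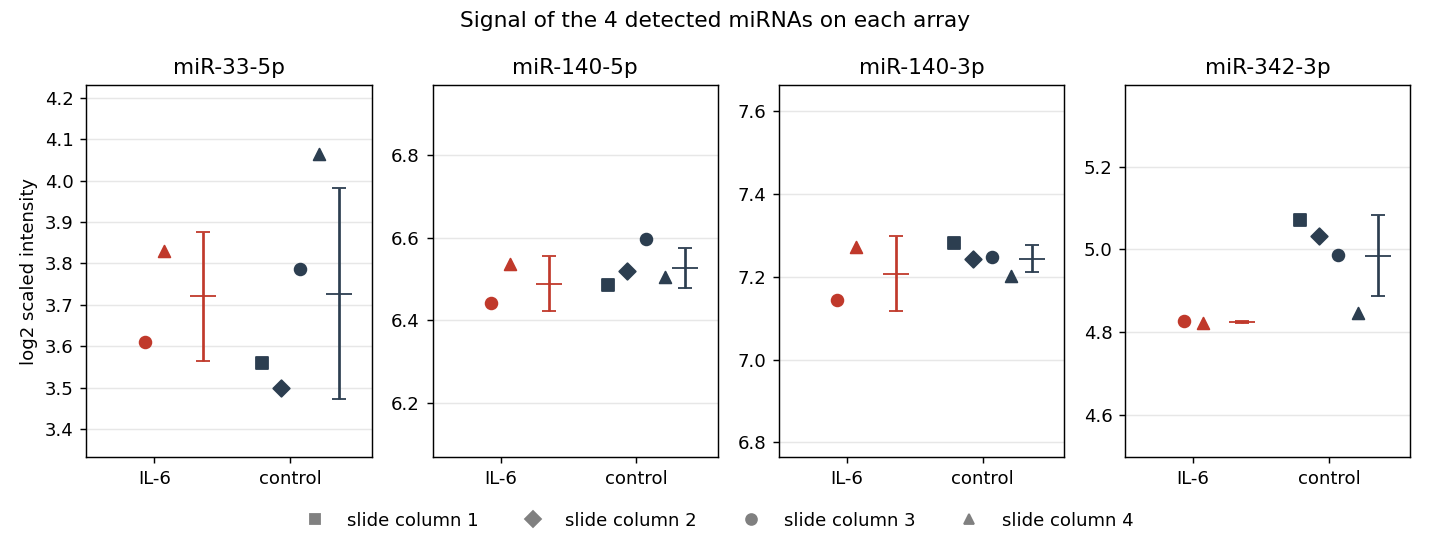
Log2 scaled intensity (y axis, each panel spanning 0.9 log2 units) of the 4 detected arms on the IL-6 arrays (red, left) and the control arrays (dark, right), with the slide column as the marker shape and mean ± SD at the right of each group (n = 2 and n = 4). The groups overlap for miR-33-5p, miR-140-5p and miR-140-3p, and for miR-342-3p both IL-6 arrays lie at 4.83 and 4.82, just below control 4 at 4.85.

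miR-140 was the hairpin with both arms detected, and under this scaling the groups overlapped for both. With spike-in scaling both IL-6 arrays lay above all controls for both arms (differences 0.26 and 0.27). With the scanner's total signal they lay below them (-0.15 and -0.14). The median of all tested miRNAs was 0.28 with spike-in scaling and -0.13 with total signal, near the values of both arms. How many of all tested miRNAs separated in these settings was not counted. miR-140-5p had scaled intensities of 86.9 and 92.8 on the IL-6 arrays, against 89.7, 91.8, 96.7 and 90.8 on controls 1 to 4. miR-140-3p had 141.5 and 154.5 on the IL-6 arrays, against 155.7, 151.5, 152.1 and 147.1 on controls 1 to 4. In both arms IL-6 array 1 was the lowest of the 6 and IL-6 array 2 lay among the controls. The log2 difference of miR-140-5p was -0.038 ± 0.068 (SE), with a 95% interval from -0.20 to 0.13 (limma adjusted p = 0.781), from 6.49 ± 0.067 with IL-6 and 6.53 ± 0.048 in controls (SD, n = 2 and 4). That of miR-140-3p was -0.036 ± 0.065 (SE), with an interval from -0.20 to 0.12 (limma adjusted p = 0.781), from 7.21 ± 0.090 with IL-6 and 7.24 ± 0.034 in controls. As folds, the intervals ran from 0.868 to 1.09 for miR-140-5p and from 0.873 to 1.09 for miR-140-3p. The slide columns gave opposite signs. The difference was -0.15 within column 3 and 0.031 within column 4 for miR-140-5p, and -0.10 and 0.070 for miR-140-3p. With the column as a block the values were -0.061 ± 0.092 and -0.017 ± 0.083 (SE).

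Over the control arrays, the arms of miR-140 were among the most even readings. Their SD over the IL-6 arrays was larger, 0.067 for miR-140-5p and 0.090 for miR-140-3p, and was not ranked. Only 8.7% of the tested miRNAs had a smaller SD over the control arrays than miR-140-5p, and 4.35% a smaller one than miR-140-3p, where the median SD of the 299 was 0.126. Each arm had 2 probes, all with every spot well above background. Their differences were -0.020 and -0.053 for miR-140-5p and -0.070 and -0.020 for miR-140-3p. Spots of a probe varied by 5.59% to 10.4% for miR-140-5p and by 3.71% to 7.23% for miR-140-3p. The log2 ratio of the 5p to the 3p reading, which cancels whatever scales both arms on an array, was -0.70 and -0.74 on the IL-6 arrays and -0.80, -0.72, -0.65 and -0.70 on controls 1 to 4. It averaged -0.719 with IL-6 and -0.717 in controls, a difference of -0.0016 (exact two-sided permutation test over 15 splits, p = 1.0, where the smallest possible is 0.0667). Within columns 3 and 4 it was -0.050 and -0.039. Because the arms are read by different probes, the ratio itself does not say which arm is more abundant.

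miR-33-5p, the arm of the Srebf2 hairpin that was detected, showed the widest spread of the detected arms. Its scaled intensity was 12.2 and 14.2 on the IL-6 arrays, against 11.8, 11.3, 13.8 and 16.7 on controls 1 to 4. Both IL-6 arrays lay inside the control range, and control 4 was the highest of the 6. The log2 values averaged 3.72 ± 0.16 with IL-6 (SD, n = 2) and 3.73 ± 0.26 in controls (SD, n = 4). The difference was -0.0066 ± 0.17 (SE), with a 95% interval from -0.43 to 0.42 (limma adjusted p = 0.9975). As a fold, this interval ran from 0.740 to 1.34, so a change of that order could not be seen at this precision. The control SD was larger than that of 87.0% of the tested miRNAs.

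The reading of miR-33-5p was higher in slide column 4 than in column 3 in both groups, though column and array cannot be told apart. In column 3 it was 12.2 with IL-6 against 13.8 in control, and in column 4 it was 14.2 with IL-6 against 16.7 in control, while the controls in columns 1 and 2, which had no IL-6 partner, were lower than these. Within columns 3 and 4 the difference was therefore -0.18 and -0.23. With the column as a block it was -0.20 ± 0.080 (SE), which rests on the arrays of columns 3 and 4 alone and did not pass (limma adjusted p = 0.3285). Its sign was not stable. The difference was 0.29 without scaling, 0.30 with spike-in scaling, 0.11 without control 4 and 0.10 without IL-6 array 1.

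**Figure D4:**
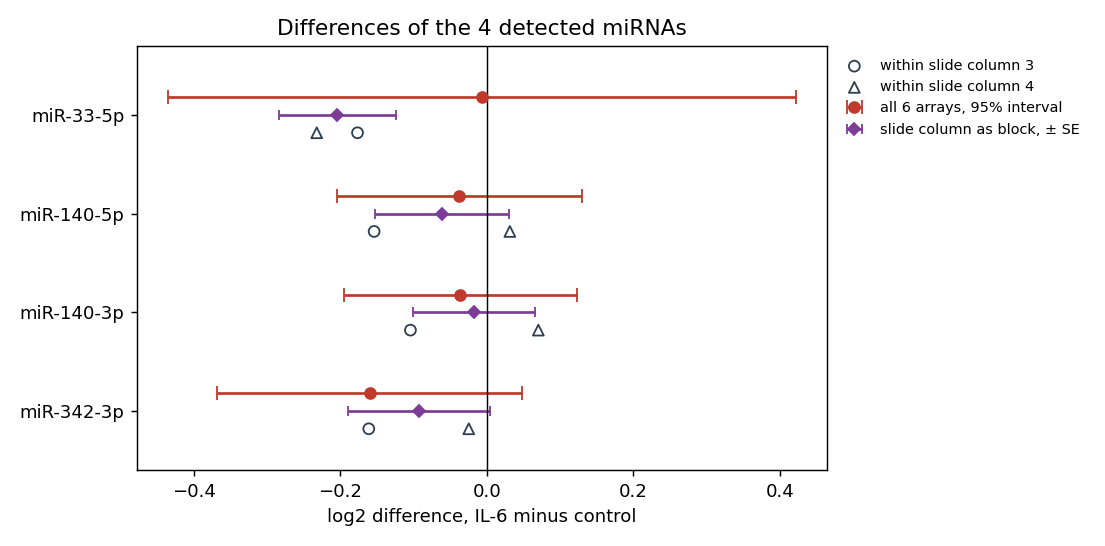
Log2 difference, IL-6 minus control (x axis), of the 4 detected arms over all 6 arrays (red circles, bars are 95% intervals), with slide column as a block (purple diamonds, bars are SE) and within slide columns 3 and 4 (open symbols). Every 95% interval spans 0, and the within-column values lie on both sides of 0 for miR-140-5p and miR-140-3p and below 0 for miR-33-5p and miR-342-3p.

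A further limit on miR-33-5p is that 1 of its 2 probes carried the detection. Both are shown because they differ by a single base, which is in capitals and pairs with base 1 of the miRNA.
20-base probe: tgcaatgcaactacaatgca
21-base probe: tgcaatgcaactacaatgcaC
The 20-base probe, which pairs with bases 2 to 21, was detected on no array, with scaled intensities between 3.70 and 8.54. The 21-base probe, which pairs with bases 1 to 21, was detected on all 6 arrays, with intensities between 17.1 and 24.9. The value of a miRNA is the mean of its probes, so the reading of the undetected probe entered that of miR-33-5p. With the detected probe alone the difference was 0.058. Spots of that probe varied by 13.4% to 22.8% on an array. The other arm, miR-33-3p, had negative scaled intensities, -0.94 and -1.37 with IL-6 and between -1.24 and -0.84 in controls, with no spot well above background. Its 4 probes cover at most bases 7 to 22. The exact two-sided permutation test gave p = 0.5333 (Benjamini-Hochberg over the 4 undetected arms, 0.7111).

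Neither arm of miR-335, the Mest miRNA, was detected by the rule used here, though the 5p arm came near it. miR-335-5p had scaled intensities of 5.05 and 4.70 on the IL-6 arrays, against 4.96, 6.29, 5.88 and 6.08 on controls 1 to 4. The groups overlapped through control 1, and 5 of the 6 values lay under 6.25, the floor below which values were not ordered in the test over all miRNAs. The scanner software's own call, made per miRNA, marked it as detected on 4 of the 6 arrays, both IL-6 arrays and controls 2 and 4. Of its 2 probes, the 19-base probe had up to 40% of its spots well above background on an array and the 18-base probe had none. The means were 4.87 ± 0.252 with IL-6 (SD, n = 2) and 5.81 ± 0.587 in controls (SD, n = 4), with p = 0.2 by the exact two-sided permutation test and 0.4 after adjustment over the 4 undetected arms. The difference of -0.931 turned to 0.108 without scaling and to 0.0837 with spike-in scaling.

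miR-335-3p had scaled intensities of 1.70 and 2.04 on the IL-6 arrays, against 2.45, 2.77, 3.66 and 3.44 on controls 1 to 4. Both IL-6 arrays were below all 4 controls, as for 65 of the 299 tested miRNAs, or 21.7%, a share not counted among undetected miRNAs. No spot of its 4 probes was well above background on any array, and the exact two-sided permutation test gave p = 0.1333 (0.4 after adjustment), so these readings order the arrays by dim signal and give no fold. The smallest p that this test can give with 2 and 4 arrays is 0.0667.

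Across the 6 arrays the detected arms did not move as a block. Pearson's r, given as a description over 6 arrays that share a slide, was 0.57 between the arms of miR-140 and 0.58 between miR-140-3p and miR-342-3p. It was -0.60 between miR-33-5p and miR-342-3p, and 0.29 between miR-33-5p and miR-140-5p. For each arm the miRNAs with the most similar pattern over the 6 arrays were then sought among the 299. miR-342-3p was most like miR-23b-3p (r = 0.97, difference -0.24) and miR-455-3p (r = 0.97, difference -0.30), and 14 tested miRNAs had an r above 0.9 with it. That count was 2 for miR-33-5p and 0 for each arm of miR-140, and was not made for the other tested miRNAs. miR-33-5p was most like miR-202-3p (r = 0.96) and miR-452-5p (r = 0.91). miR-140-5p was most like miR-24-2-5p and miR-664-3p (r = 0.87 for both), and miR-140-3p was most like miR-1839-3p (r = 0.85) and miR-500-3p (r = 0.83). None of these 8 passed the test between groups, and the r values themselves were not tested. They are the highest picked from the 299 over only 6 arrays, so high values can arise from the picking.

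Other miRNAs of related roles were read from lists written from general knowledge. Of 31 other miRNAs that lie in introns of protein-coding genes, 28 were tested. None passed, 10 differences were above 0 and 18 below, and the median was -0.12, beside -0.016 and 55.2% below 0 over all tested miRNAs. The list's median was -0.12 within slide column 3 and -0.038 within column 4, -0.045 with the column as a block, and -0.066 without IL-6 array 2. The brightest were miR-103-3p of the Pank2 and Pank3 genes, at 10.95 ± 0.011 with IL-6 and 11.05 ± 0.097 in controls on the log2 scale (SD, n = 2 and 4), and miR-26a-5p of the Ctdspl and Ctdsp2 genes, at 10.39 ± 0.018 with IL-6 and 10.34 ± 0.034 in controls. Their differences were -0.11 and 0.043 (limma adjusted p = 0.4548 and 0.6785).

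Of 18 miRNAs known to target cholesterol transport, as miR-33 does, 14 were tested. None passed, 6 differences were above 0 and 8 below, and the median was -0.056. It was -0.033 within slide column 3 and 0.013 within column 4, and 0.0050 with the column as a block. Leaving out 1 array gave -0.015 without control 2, -0.035 without control 3 and -0.13 without control 4. With IL-6 array 1 omitted it was -0.12, and with IL-6 array 2 omitted 0.0015. Differences in this list ran from -0.40 to 0.63. Its brightest were miR-26a-5p, with a difference of 0.043 (limma adjusted p = 0.6785), and miR-27a-3p, with -0.17 (limma adjusted p = 0.2674). Of 26 miRNAs linked to fat cell differentiation, 24 were tested, none passed, and 4 differences were above 0 and 20 below, where 55.2% of all tested miRNAs were below 0. The median was -0.12, with -0.13 within slide column 3, -0.047 within column 4, -0.074 with the column as a block and -0.081 without IL-6 array 2. The brightest were miR-21a-5p, with a difference of -0.15 (limma adjusted p = 0.2443), and miR-125b-5p, with a difference of -0.10 (limma adjusted p = 0.6001). The medians of the 3 lists, like that over all tested miRNAs, turned above 0 without scaling and with spike-in scaling. The lists share between 5 and 7 members pairwise and are not independent.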

How the data were processed

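MicroRNA was read from 100 ng of total RNA per sample (RNA integrity number 9.5 to 10.0) with Cy3 on 1-colour Agilent mouse miRNA arrays, 2 with IL-6 and 4 controls, grouped by sample titles. Per the file headers, the authors read spots with Agilent Feature Extraction 10.10.1.1, and the deposited spot intensity had a spatially fitted background subtracted, with no surrogates, so it can be negative. The spot flags for signal above background, outliers, unevenness and saturation were used as deposited. The deposited series table also holds linear intensity and equalled the scanner's total probe signal (largest difference 0.0). It was on a linear scale, uncentred, and of 1 colour, so its direction is known. Column medians were 0.0727 and 0.117 for IL-6 and 0.0937, 0.104, 0.0777 and 0.0781 for controls.

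The 2164 control spots, and outlying or uneven spots, were left out, and no spot was saturated. The remaining spots of each of the 3105 probes were averaged (6 to 20 spots for the probes described). Arrays were scaled to the 75th percentile of 502 probes, probes were averaged per miRNA, values under 6.25 (log2 2.64) were set to that floor, the highest over arrays of the lowest detected signal, and log2 was taken. The floor understates changes of dim miRNAs. The test took the 299 miRNAs detected on all controls or on both IL-6 arrays, with limma 3.58.1 in R 4.3.3 (lmFit, eBayes with trend, no covariates). SE, intervals and adjusted p come from this fit. The procedure was tried on simulated data with independent noise and without a floor or slide effects, so that trial does not cover those. Undetected arms were compared on unfloored scaled intensities by exact permutation. Other scalings, background corrections, filters, blocks and left-out arrays were tried. The labels do not say whether replicate numbers pair the samples. Deviations of same-numbered arrays correlated at 0.0582 and -0.3375. Arrays that share a slide column correlated at 0.4138 (column 3) and 0.5107 (column 4), and the fit with the column as a block is given beside the detected arms and the lists. That fit compares the groups only within columns 3 and 4, so its SE rests on few arrays. With 2 IL-6 arrays, their deviations mirror each other, so these correlations of deviations cannot show whether the samples were paired. The miRNAs and lists were chosen with earlier results of these data known. The text names all 8 arms, the 2 most similar tested miRNAs for each detected arm, and the 2 brightest tested miRNAs of each list.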

Additional observations from a re-analysis of the deposited data

Results flagged for a closer look

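A single reading stood apart among the 16 groups of 4 control readings examined, where chance flags about 1 in 20. The 20-base probe of miR-140-5p read 6.50 (log2) on control 3, and its gap to the nearest other control was 0.918 of the control range. It was above the other controls on the array whose miR-140-5p value was the highest of the 6, but that value includes this probe. The 21-base probe read 6.69 on control 3, against 6.57, 6.62 and 6.59 on controls 1, 2 and 4. Without control 3 the test of miR-140-5p still did not pass.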

How the results depend on the processing

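None of the 4 detected arms passed under any of the 20 alternative fits. Over them the limma adjusted p ran from 0.3285 to 0.9977 for miR-33-5p, 0.1765 to 0.9705 for miR-140-5p, 0.25 to 0.9289 for miR-140-3p and 0.118 to 0.82 for miR-342-3p. Unscaled, the log2 differences were 0.287, 0.256, 0.258 and 0.134 for miR-33-5p, miR-140-5p, miR-140-3p and miR-342-3p, and with spike-in scaling 0.296, 0.265, 0.266 and 0.142. The median of all tested miRNAs moved with them, by 0.28 and 0.29, and by -0.11 with all-probe scaling, -0.12 with normexp and -0.11 with the scanner's total signal. miR-33-5p was 0.0582 with its brightest probe. Leaving out 1 array gave -0.12 to 0.11 for miR-33-5p, -0.085 to 0.0093 for miR-140-5p, -0.10 to 0.027 for miR-140-3p and -0.21 to -0.13 for miR-342-3p. Where this left 1 IL-6 array, that array was taken to vary like the controls. Within columns 3 and 4 the values were -0.154 and 0.0314 for miR-140-5p, -0.104 and 0.0703 for miR-140-3p, and -0.0247 in column 4 for miR-342-3p.

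With replicate number as a block, over the 2 shared numbers, miR-33-5p was 0.191, the miR-140 arm ratio 0.0411, and 0 miRNAs passed. Calls among all tested miRNAs, 1 in the fit described, numbered 34 without scaling, 31 with spike-in scaling, 42 with total signal (13 higher, 29 lower), 14 with the brightest probe, 9 with normexp, 7 with the floor lowered by a factor of 2, 2 with all-probe scaling, 2 with no detection filter, and 0 with the series table, with detection on all 6 arrays and with the column as a block. They numbered 1 to 31 when 1 array was left out, with 31 when control 4 was omitted, and 5 and 3 when IL-6 array 1 or IL-6 array 2 was. Arms whose groups did not overlap numbered 0 without scaling, with all-probe scaling and with the brightest probe, 2 with spike-in scaling (miR-140-5p and miR-140-3p, both higher with IL-6, and not miR-342-3p), 3 with total signal (both miR-140 arms and miR-342-3p, all lower), and 1 to 3 with 1 array left out, where the same 3, again all lower, came without IL-6 array 2. The share of all tested miRNAs whose groups did not overlap was counted only in the fit described, at 104 of 299, or 34.8%. The counts of arms in the other settings therefore have no background beside them. Without IL-6 array 2, a single IL-6 array was set against the 4 controls, which makes separation easier. The arm ratio difference ran from -0.028 to 0.0199 with 1 array left out. Among undetected arms, the scaled intensity difference of miR-335-5p was 0.108 unscaled and 0.0837 under spike-in scaling, and with 1 array left out that of miR-33-3p ran from -0.349 to 0.0762 and that of miR-342-5p from -0.425 to 0.408. The cause of these changes was not tested. Dim signal limits miR-33-5p, which lies above the floor but not far from it, and miR-335-5p, which lies near it. It also limits miR-33-3p, miR-335-3p and miR-342-5p, which lie below the floor on every array.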
